A study of Homo sapiens with 4 samples.

Results

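The cadherin genes and the protocadherin genes that lie outside the protocadherin clusters form a family of 38 genes of cell-cell adhesion, and they are described here by the places where V5-tagged SOX2, or its DNA-binding domain alone (SOX2-DBD), was mapped on them. A gene's window was its annotated body (GENCODE release 44 on hg19) and 10 kb either side, and an interval was counted where it overlapped a window by at least 1 bp. Of the 58827 distinct intervals in the SOX2 and SOX2-DBD peak lists, 151 (0.257%) lay on these genes, whose windows cover 12.4 Mb. Of them, 100 were in the SOX2 list only (SOX2-only), 40 were in both lists (shared) and 11 were in the SOX2-DBD list only (DBD-only).

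The study asked how pioneer factors, here SOX2 beside FOXA1, move over chromatin and reach its compacted parts. Both groups were BJ cells, an established human foreskin fibroblast line, in which the tagged protein was expressed ectopically for 48 h, either SOX2 or SOX2-DBD. The tag was then located by CUT&RUN, in which an antibody, here against V5, guides a nuclease that releases the DNA around the bound protein. Each group had 2 samples, and the lists analysed belonged to replicate 1 of each group. The labels name no promoter or vector for the introduced proteins, and no list from BJ cells without them was analysed here. With 1 list per group there is no error between replicates and no test; the 95% intervals below (exact Poisson for densities, Wilson for shares) cover counting error only. RNA was not analysed here, so nothing below says which of these genes the cells express.

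Cadherins are membrane proteins whose extracellular repeats bind calcium and the same or a related cadherin on a neighbouring cell. The cytoplasmic tails of the classical type I and type II cadherins bind catenins, which join them to actin; the protocadherins and the giant FAT and Dachsous cadherins have other tails and act in cell sorting, planar polarity and growth control. Fibroblasts are known for N-cadherin (CDH2) and cadherin-11 (CDH11), epithelia for E-cadherin (CDH1), and endothelium for VE-cadherin (CDH5). SOX2 binds short A- and T-rich sites through its HMG box, the domain that SOX2-DBD keeps.

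The 200 bases at the centres of 7 intervals are shown as examples. They include the strongest interval by the authors' total signal in 4 of the subfamilies and a shared interval beside PCDH18, which had the highest density. The others are the CDH11 interval with the highest seventh-column value and a DBD-only interval in PCDH9. The PCDH15 interval is also DBD-only, and it is that gene's lone interval. Each is the plus strand of GRCh37 (hg19), read 5′ to 3′. Capitals mark the SOX core letters (ACAAAG or ACAATG on either strand, so also CTTTGT or CATTGT) and the AP-1 letters (TGACTCA on either strand, so also TGAGTCA).
FAT4, chr4:126310930-126311129: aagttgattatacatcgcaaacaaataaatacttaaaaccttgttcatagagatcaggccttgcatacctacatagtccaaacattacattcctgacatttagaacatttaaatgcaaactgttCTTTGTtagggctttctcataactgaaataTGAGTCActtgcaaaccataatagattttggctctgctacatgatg
PCDH18, chr4:138432001-138432200: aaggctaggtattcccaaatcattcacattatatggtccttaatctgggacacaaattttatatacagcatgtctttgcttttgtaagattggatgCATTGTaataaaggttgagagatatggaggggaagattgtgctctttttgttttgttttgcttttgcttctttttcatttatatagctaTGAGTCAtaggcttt
CDH2, chr18:25625863-25626062: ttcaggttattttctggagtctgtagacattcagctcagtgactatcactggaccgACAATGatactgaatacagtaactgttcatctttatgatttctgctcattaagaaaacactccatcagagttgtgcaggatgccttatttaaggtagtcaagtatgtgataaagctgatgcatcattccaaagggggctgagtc
CDH6, chr5:31295324-31295523: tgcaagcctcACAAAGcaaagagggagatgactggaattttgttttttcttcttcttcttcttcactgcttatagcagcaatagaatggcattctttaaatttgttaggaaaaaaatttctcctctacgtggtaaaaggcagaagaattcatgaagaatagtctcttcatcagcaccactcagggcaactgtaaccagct
CDH11, chr16:65046270-65046469: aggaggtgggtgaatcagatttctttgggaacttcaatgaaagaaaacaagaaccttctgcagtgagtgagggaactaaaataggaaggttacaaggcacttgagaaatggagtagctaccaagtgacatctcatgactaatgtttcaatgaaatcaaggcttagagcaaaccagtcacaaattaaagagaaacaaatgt
PCDH15, chr10:57086461-57086660: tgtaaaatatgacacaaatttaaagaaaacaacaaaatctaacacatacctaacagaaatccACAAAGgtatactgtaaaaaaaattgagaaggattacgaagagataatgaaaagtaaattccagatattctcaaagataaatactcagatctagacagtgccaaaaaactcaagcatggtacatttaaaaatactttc
PCDH9, chr13:67586163-67586362: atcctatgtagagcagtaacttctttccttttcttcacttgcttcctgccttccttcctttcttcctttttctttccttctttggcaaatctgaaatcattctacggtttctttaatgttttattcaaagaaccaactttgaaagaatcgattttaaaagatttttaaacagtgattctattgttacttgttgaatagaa
The FAT4 and PCDH18 windows held both sets of letters, the CDH2, CDH6 and PCDH15 windows the SOX core alone, and the CDH11 and PCDH9 windows neither. The windows shown do not stand for strong intervals in general. The strongest atypical and protocadherin intervals, on CDH17 (total signal 7194) and PCDH9 (9540), are not shown and held neither set. The stronger shared interval of PCDH18 (7708) held neither as well. These are matches of letters in 200 bases, and a window without them says nothing about the protein.

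A SOX2 interval, in either class of the SOX2 list, lay on 20 of the 38 genes, and 21 had an interval of any class. Among all 20163 protein-coding genes the shares were 47.7% and 48.2%, against 52.6% (37.3 to 67.5) and 55.3% (39.7 to 69.9) of the cadherin genes. These shares are near each other, but the cadherin genes are long, with a median of 137 kb against 27.2 kb for all protein-coding genes, and longer genes are covered more often. Of the 22 cadherin genes of 100 kb or more, 14 had a SOX2 interval (63.6%, 43.0 to 80.3), below the 84.1% of protein-coding genes of that length. Of the 16 shorter ones, 6 had an interval (37.5%, 18.5 to 61.4), close to the 39.6% of shorter protein-coding genes. A shared interval lay on 11 of the 38, against 22.9% of all protein-coding genes, and a DBD-only interval on 2, against 2.48%.

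**Figure D1:**
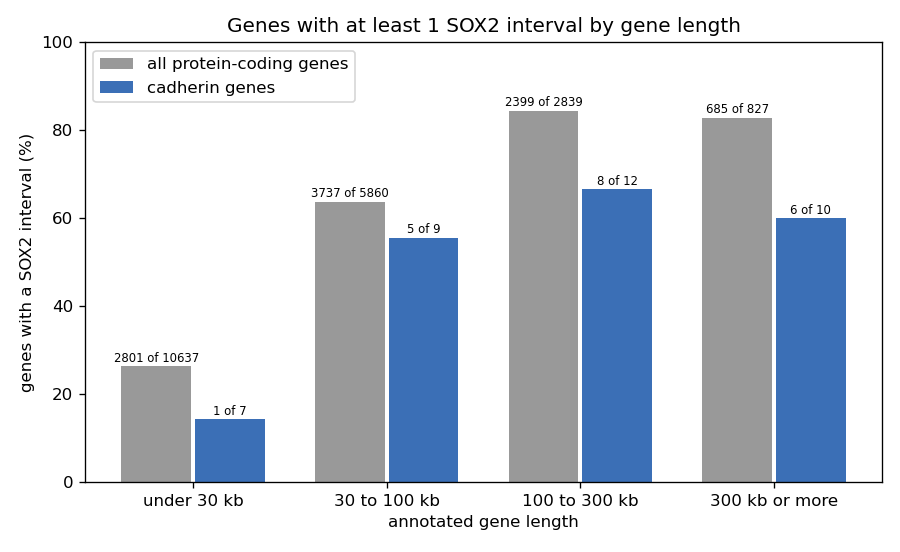
Share of genes with at least 1 SOX2 interval (%) by annotated gene length, for all protein-coding genes (grey) and for the 38 cadherin and protocadherin genes (blue), with the counts over each bar. In every length class the blue bar is the lower, and at 300 kb or more 6 of 10 cadherin genes had an interval beside 685 of 827 protein-coding genes.

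Taken over their whole length, the cadherin genes carried fewer SOX2 intervals than genes at large. The SOX2 list gave 140 intervals on the family, or 1.13 per 100 kb (0.951 to 1.33), against 2.59 over all protein-coding windows and 1.99 over the autosomes. The SOX2-DBD list gave 51, or 0.412 per 100 kb (0.307 to 0.541), against 0.635 and 0.525. The 1 Mb either side of these genes, beyond the 10 kb of the window, was sparse as well. Its median density over the 38 members was 1.16 per 100 kb, and for 29 of them it was below the autosomal density. The median gene of the family had 0.40 SOX2 intervals per 100 kb. Among the members of 100 kb or more that median was 0.51, against 2.66 for protein-coding genes of that length. The low density was an average over very unequal genes: 5 members had at least 2 times the autosomal density, while 18 had no SOX2 interval at all. That count of 5 of 38 (13.2%, 5.75 to 27.3) stands beside 20.4% of all protein-coding genes at this density, 35% of those of 100 kb or more (3 of 22 members) and 17.1% of the shorter ones (2 of 16 members).

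**Figure D2:**
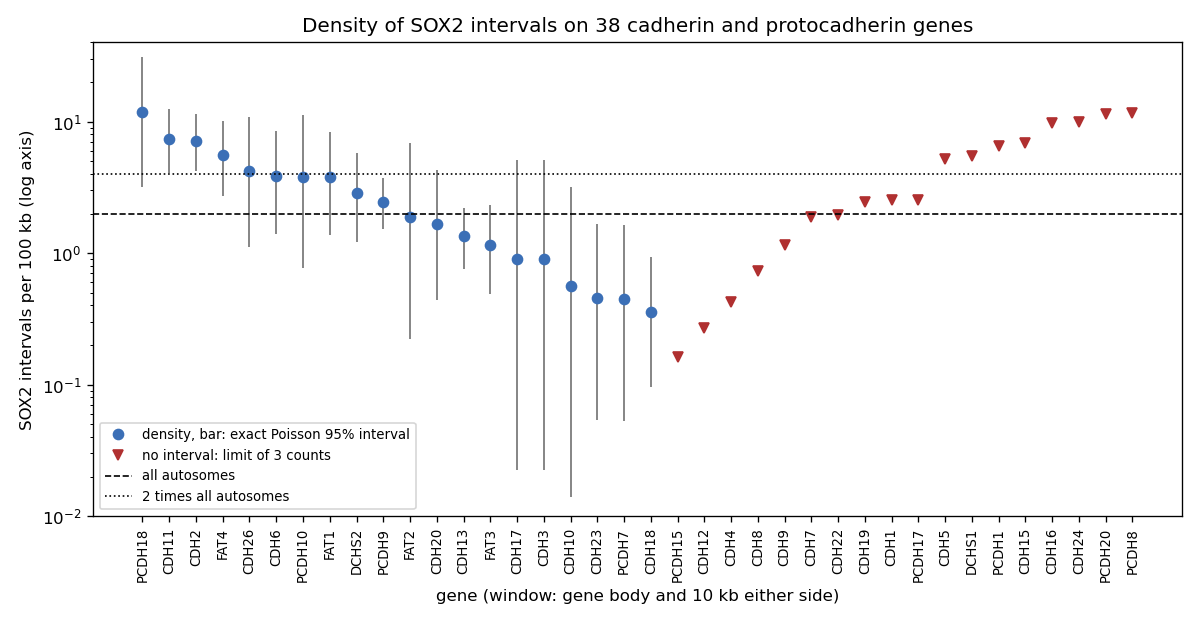
SOX2 intervals per 100 kb of window (log axis) for each of the 38 genes; points are densities with exact Poisson 95% intervals, and triangles mark, for the 18 genes with no SOX2 interval, the density that 3 counts would give. PCDH18, CDH11, CDH2, FAT4 and CDH26 lie above the dotted line at 2 times the autosomal density, and the bars of neighbouring genes overlap throughout.

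Among the classical type I cadherins, SOX2 intervals were concentrated on CDH2. CDH2, which encodes N-cadherin (chr18:25512843-25757910, minus strand), had 19 SOX2 intervals, 12 of them SOX2-only and 7 shared, or 7.17 per 100 kb (4.32 to 11.2). The lower bound lies above the threshold of 3.99 used for a dense gene. In the 1 Mb either side, beyond the 10 kb of the window, the density was 1.77 (1.23 to 2.46), so the intervals were 4.06 times as dense on the gene as around it. They were not spread evenly along it: 13 of the 19 lay in intron 2 of the canonical transcript, which is 134 kb long, and 6 of the 7 shared ones were there. Of these, chr18:25645414-25645873 and chr18:25646168-25646353 had the same total signal (5882) and the same region of maximum signal, and were counted separately. The strongest of the type I intervals, with a total signal of 7509, was the SOX2-only interval chr18:25625239-25626687, whose centre was 0.403 kb from an internal protein-coding start inside intron 2 and which overlapped coding sequence of a shorter transcript. At the 5′ end of the gene body there was 1 interval in intron 1, 9.03 kb in, and 2 in the upstream flank.

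The other type I genes had almost none. CDH3 (P-cadherin, an epithelial cadherin) had 1 SOX2-only interval, in intron 2. CDH1 (E-cadherin, chr16:68771195-68869440), CDH4 (R-cadherin) and CDH15 (M-cadherin of muscle) had none. Around CDH1, the 1 Mb either side held 44 SOX2 intervals, or 2.22 per 100 kb. Its window is 118 kb long, and 0 counts there allow up to 2.54 per 100 kb, so a difference from its surroundings was not detectable. CDH4 is long enough to say more: 0 intervals in 708 kb allow up to 0.42 per 100 kb, and its surroundings held 1.

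Of the 13 type II genes, 5 had a SOX2 interval, beside 47.7% of all protein-coding genes and 84.1% of those of 100 kb or more. Their SOX2 intervals numbered 30. CDH11 (chr16:64977656-65160015), the cadherin of osteoblasts and many mesenchymal cells, had 15 of them, 12 SOX2-only and 3 shared, or 7.41 per 100 kb (4.15 to 12.2), which was 3.49 times the density around it. They ran along the gene, with 4 in intron 2, and 13 of the 15 were intronic. Only 4 had the SOX core in the central 200 bases. CDH6 (K-cadherin, chr5:31193793-31329253) had 6, or 3.86 per 100 kb (1.42 to 8.40), just under the threshold for a dense gene, and the strongest type II interval was its SOX2-only interval in intron 3, with a total signal of 6683. CDH20 had 4 SOX2-only intervals, or 1.65 per 100 kb (0.450 to 4.23), and CDH10 had 1, a shared interval of 71 bp. CDH18 completes the 5.

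The remaining 8 type II genes had none: CDH5, CDH7, CDH8, CDH9, CDH12, CDH19, CDH22 and CDH24. Several of these, known mainly from the nervous system, lie in stretches that held no SOX2 interval for 1 Mb either side. That was so for CDH7, CDH8 and CDH9, and also for CDH10, whose window held 1. Over the family, 6 of the 38 members had such surroundings, and the share among all protein-coding genes was not counted. CDH12, of 1103 kb, had none, which allows up to 0.27 per 100 kb; CDH18, of 1105 kb, had 4, or 0.36 (0.097 to 0.911), the lowest density among the members with a SOX2 interval. CDH12 and CDH18 each had 6 intervals in their surroundings. CDH5, the endothelial VE-cadherin, had none on a window of 58.1 kb, which allows up to 5.16 per 100 kb and so says little, and its surroundings held 36.

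The atypical cadherins were grouped apart from types I and II. CDH13 (T-cadherin, which is held in the membrane by a lipid anchor; chr16:82660570-83834245) had 16 SOX2 intervals, 14 SOX2-only and 2 shared, all intronic and spread over 7 introns between 67.7 and 880 kb from its 5′ end. Over 1174 kb of gene this made 1.34 per 100 kb (0.766 to 2.18), an estimate whose interval includes the autosomal density, while its surroundings had 0.556 (0.277 to 0.994). The SOX core was found in 11 of the 16 windows. CDH26 had 4, all SOX2-only, or 4.18 per 100 kb (1.14 to 10.7); the interval of that estimate includes the autosomal density. The one farthest upstream overlapped the neighbouring gene FAM217B, and its centre, 10.1 kb from the start, lay outside the window. Counted by centres, CDH26 had 3 intervals, or 3.14 per 100 kb, and was not dense. CDH17, the intestinal cadherin on chromosome 8, had 1 SOX2-only interval, in intron 3 and of the highest total signal in this subfamily (7194), in surroundings with 57. CDH16, known from kidney, had none.

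CDH23 and PCDH15 form the tip link of sensory hair cells and are among the longest members. CDH23 (419 kb) had 2 SOX2-only intervals, or 0.46 per 100 kb (0.055 to 1.65), in surroundings with 2.63 (1.96 to 3.44), so its density was 0.17 times that around it. PCDH15 (1825 kb, the longest member) had no SOX2 interval, which allows up to 0.16 per 100 kb, and 1 DBD-only interval, chr10:57085997-57087125, with a total signal of 2851.

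**Figure D3:**
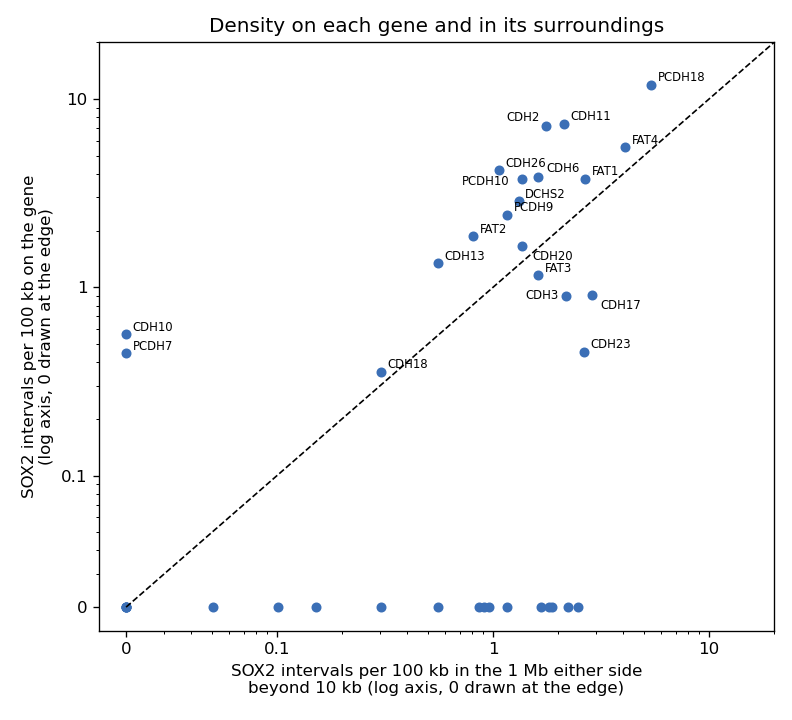
SOX2 intervals per 100 kb on each gene's window (vertical, log axis) against the 1 Mb either side beyond 10 kb (horizontal, log axis), with zeros drawn at the edge and the dashed line marking equal densities. Of the 20 genes with a SOX2 interval, 16 lie above the line, and FAT3, CDH3, CDH17 and CDH23 lie below it. Counting only genes that have an interval favours places above the line. Of all 38 genes, 16 lie above it and 18 below, 14 of the latter with no SOX2 interval.

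The products of the FAT and Dachsous genes include FAT4 and the Dachsous cadherins that bind FAT cadherins across cell contacts. Of these 6 genes, 5 had a SOX2 interval, the highest share of any subfamily, followed by 3 of 4 atypical genes. The share was 47.7% among all protein-coding genes and 84.1% among those of 100 kb or more. Their 35 SOX2 intervals made 2.35 per 100 kb (1.64 to 3.27), a range that includes the 2.59 over protein-coding windows. FAT4 (chr4:126236073-126414087) had 11, 8 SOX2-only and 3 shared, or 5.56 per 100 kb (2.77 to 9.94). Of these, 8 lay in intron 2, which is 77.2 kb long. All 3 shared ones were there, including chr4:126310894-126311166, whose total signal of 8529 was the highest of any SOX2-list interval named here and whose centre holds both sets of letters shown above. A SOX2-only interval, chr4:126313539-126314908, lay next to it with its centre 0.867 kb from an internal protein-coding start. The neighbourhood of FAT4 was itself rich, with 4.09 per 100 kb (3.25 to 5.08), so the gene was 1.36 times as dense as its surroundings, a difference within counting error.

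FAT1 had 6 SOX2 intervals, or 3.78 per 100 kb (1.39 to 8.22). A shared one of 170 bp, chr4:187643971-187644140, lay in intron 1 with its centre 0.954 kb from a protein-coding start, and another shared one lay 5.07 kb upstream of the gene. DCHS2 had 8 (2.86, 1.23 to 5.63), 4 of them in intron 1 of 112 kb. FAT3 had 8 over 692 kb (1.16, 0.499 to 2.28), 3 of them in the tenth of the gene nearest its 5′ end, and FAT2 had 2. DCHS1, the Dachsous partner of FAT4, had none on a window of 54.5 kb although its surroundings held 49; 0 counts there allow up to 5.51 per 100 kb.

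Among the protocadherins, shared and DBD-only intervals outnumbered SOX2-only ones, which were 14. Of their 32 SOX2-list intervals, 18 were shared (56.3%, 39.3 to 71.8), against 23.4% over protein-coding windows, and 10 of the family's 11 DBD-only intervals were on them. PCDH9 alone had 16 of those 18 shared intervals and all 10 DBD-only ones. PCDH18 supplied the other 2 shared intervals. It is a small gene of 13.6 kb (chr4:138440072-138453648) and had the highest density of the family, 11.9 per 100 kb (3.25 to 30.5), from 4 intervals: 2 in the downstream flank, 1 over untranslated exon sequence near its 3′ end and 1 in the upstream flank, 1.39 kb from the 5′ end. Its surroundings were the richest of any member, with 107 intervals or 5.40 per 100 kb (4.43 to 6.53), so the interval of its own density includes that value. PCDH10 had 3 SOX2-only intervals, all in intron 4, or 3.78 per 100 kb (0.780 to 11.1). PCDH7 had 2, both in intron 2, with no other SOX2 interval within 1 Mb. PCDH1, PCDH8, PCDH17 and PCDH20 had none, and around PCDH17 there was none within 1 Mb either.

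**Figure D4:**
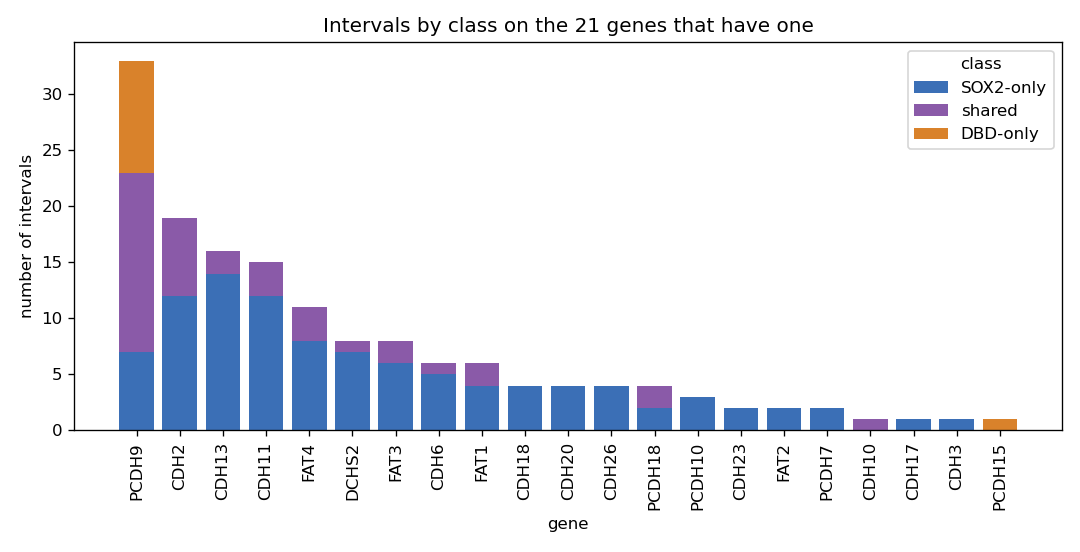
Number of intervals by class on the 21 genes with at least 1, stacked as SOX2-only (blue), shared (purple) and DBD-only (orange). PCDH9 has 7, 16 and 10 of the classes; elsewhere the blue part is the larger in each gene of 5 or more intervals, and the one other DBD-only interval is on PCDH15.

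PCDH9 (chr13:66876966-67804577, minus strand), a protocadherin best known from the brain, had 33 intervals, the most of any member. In the SOX2 list it was not dense, with 23 intervals or 2.43 per 100 kb (1.54 to 3.64). Its 10 DBD-only intervals were more than on any other of the 20163 protein-coding genes; the next highest, ARHGAP26, HYDIN and PRIM2, had 3 each, and 28 genes had 2 or more. They made 10.6 DBD-only intervals per Mb, against 5.56 in the gene's surroundings and 0.312 over the autosomes. The first 2 rates rest on only 10 and 11 intervals, and their difference was not tested. DBD-only intervals were frequent around the gene as well as on it. From 1 Mb before PCDH20 to 1 Mb past PCDH9, a stretch of 7.82 Mb, chromosome 13 held 62 DBD-only, 58 shared and 45 SOX2-only intervals, and those 62 were 69.7% of the 89 DBD-only intervals of the chromosome. The stretch, and the 3 other genes named here, were chosen after their values were seen. PCDH20 itself had no interval of any class, but 25 DBD-only intervals lay within 1 Mb of it.

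Within PCDH9 the shared and DBD-only intervals spanned nearly the whole gene, from 30.7 to 891 kb and from -5.45 to 918 kb relative to the 5′ end. Of the 10 DBD-only intervals, 7 lay in intron 2 (322 kb) by the canonical transcript, 2 of these also overlapping untranslated exons of other transcripts, 1 lay in the upstream flank, 1 in intron 3 and 1 in intron 4. In the first 33% of the gene by length, counted with the upstream flank, there were 8 DBD-only intervals, 4 shared and no SOX2-only. Of the 7 SOX2-only intervals, 5 lay in intron 4 and 2 in intron 3, from 542 to 875 kb from the 5′ end, and 8 of the 16 shared ones lay in intron 3 (272 kb). The DBD-only intervals were wide, from 567 to 2862 bp with a median of 1393 bp, against a median of 1021 bp for DBD-only intervals over protein-coding windows. Their central windows had 33.3% GC, against 41.9% over protein-coding windows, and PCDH9 as a whole has 34.6%. The SOX core was in 2 of the 10 and the AP-1 letters in none; over protein-coding windows the shares in DBD-only intervals were 41.4% and 15.2%. The shared intervals were narrower, with a median of 357 bp, and one was 8 bp long. Among them, chr13:67261459-67261634 and chr13:67261843-67261915 had the same total signal (4295) and region of maximum signal, and were counted separately.

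**Figure D5:**
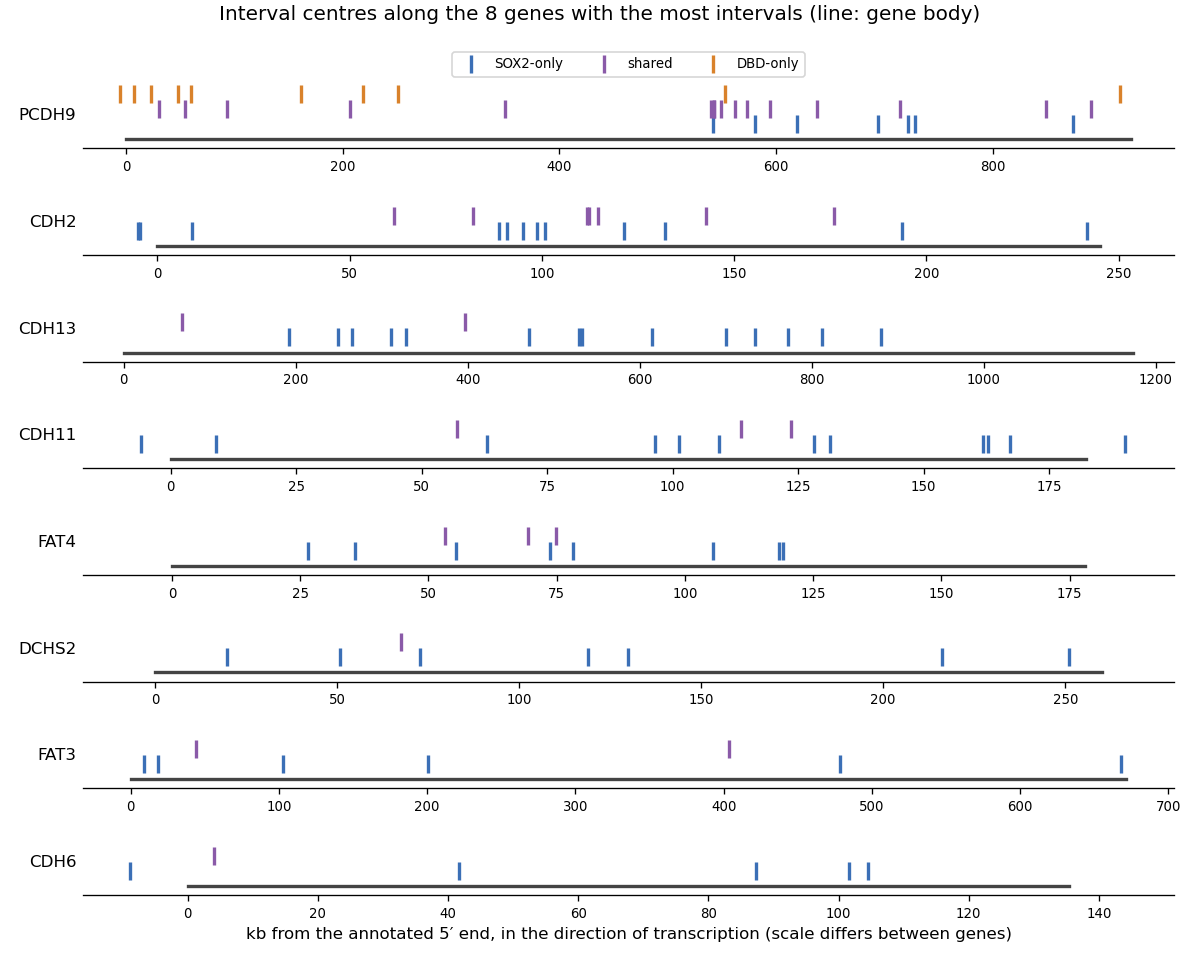
Centres of intervals along the 8 genes with the most intervals, in kb from the annotated 5′ end in the direction of transcription, with SOX2-only, shared and DBD-only intervals in 3 rows and the gene body as a line; the scale differs between genes. In PCDH9, 8 of the 10 DBD-only marks lie towards the 5′ end and all 7 SOX2-only marks lie beyond 540 kb, and in CDH2 13 of 19 marks fall in intron 2, between 61.4 and 143 kb.

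Over the family, 28.6% of the SOX2 intervals were shared (40 of 140, 21.7 to 36.5), against 23.4% over protein-coding windows. Without PCDH9 the share was 20.5% (24 of 117, 14.2 to 28.7), the SOX2-DBD density fell from 0.412 to 0.219 per 100 kb, and 1 DBD-only interval was left. Each shared interval has the same position and the same signal values in both lists, and which group those values were measured in is not stated, so the class says that both lists hold the interval and gives no measure of relative occupancy. The total signal of shared intervals on the family had a median of 2955, against 2224 for SOX2-only ones; over protein-coding windows the medians were 2732 and 2287. The region of maximum signal lay partly or wholly outside the interval for 17 of the 40 shared ones, so the value printed for an interval need not be that of its own bases. The median widths of the 2 classes were 318 and 569 bp on the family, and 374 and 558 bp over protein-coding windows.

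By the position of the centre, 129 of the 151 intervals were intronic, 7 were in an exon of some transcript, 12 were in the flanks and 3, on CDH2, FAT1 and FAT4, were within 1 kb of a protein-coding start. None of those 3 was at the gene's outermost 5′ end: they lay 132, 3.82 and 78.2 kb into the gene. Introns make up 90.1% of the length of the family's windows and held 86.0% (79.5 to 90.7) of the 150 centres inside them; over all protein-coding windows the values were 76.4% and 82.1%. Another annotated gene was overlapped by 14 intervals, a protein-coding gene by 1 of these.

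The SOX core was found in the central 200 bases of 57 of the 140 SOX2 intervals (40.7%, 32.9 to 49.0). Over protein-coding windows it was found in 47.0%. Windows of the same length 10 kb downstream held it in 37.9% (30.2 to 46.1) for the family and in 27.2% for protein-coding windows, and windows 10 kb the other way in 28.6% (21.7 to 36.5) and 27.0%. The excess over nearby sequence therefore depended, for these genes, on the side from which the comparison was taken. AP-1 letters were in 13 of the 140 (9.29%, 5.51 to 15.2), against 3.57% 10 kb downstream and 8.77% in the intervals over protein-coding windows. They were in 6 of the 40 shared intervals and in 7 of the 100 SOX2-only ones, near the 16.4% and 6.45% of those classes over protein-coding windows. The SOX2 intervals of the family had a mean GC content of 33.9%, against 38.6% in the windows 10 kb downstream and 33.8% in the intervals over protein-coding windows.

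The genes of cadherin partners were counted in the same way, and their counts are to be read against 47.7% of protein-coding genes with a SOX2 interval, 20.4% dense, and 2.59 per 100 kb over protein-coding windows. Genes differ in length between these lists, and no list was tested. Of 14 genes for catenins and other junction proteins, 11 had a SOX2 interval and 5 were dense, with 94 intervals or 1.62 per 100 kb over their windows. Of 6 genes for the SNAI, ZEB and TWIST factors, which are known to switch cells between E- and N-cadherin, 5 had one and 2 were dense, with 23 intervals or 3.43 per 100 kb. The 7 desmosomal cadherin genes, whose products hold epithelial cells together at desmosomes, had none in 425 kb, with overlaps between windows counted once. Some of these windows overlap, so the 7 genes are not 7 separate observations. The clustered protocadherins share their windows: 22 of the 53 genes were reached by only 7 distinct intervals, 3 of them shared.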

How the data were processed

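For each group, the peak list deposited under its replicate 1 was used. Per the submitters' processing notes, the build was hg19, and Bowtie2 2.3.4.1, SAMtools, bedtools 2.27.1, SEACR 1.3 and deepTools 3.5.0 were used; settings, thresholds and whether replicates were pooled are not given in the sources used here. The authors' deposited total and maximum signal per interval were used only to describe and rank intervals. The seventh column of the SOX2 list, deposited for the shared rows alone, is a score of unstated meaning. A further deposited list, named as down-sampled, was used for positions, and its other columns were not interpreted. Sequencing depth is unknown.

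Duplicate rows (1654 in each list) were counted once. Gene models were GENCODE release 44 mapped to GRCh37, introns were those of the Ensembl canonical transcript, and protein-coding genes of the same annotation on all chromosomes gave the background. A gene was dense at 2 times the autosomal SOX2 density or more. A gene with 0 intervals was given the limit that 3 counts allow. Motifs were sought on both strands in 200-bp windows at interval centres. Members with no interval, those with the most intervals or the most extreme densities, those with a DBD-only interval and those with one within 1 kb of a start were described in full. The members and lists were chosen with earlier results of these data known. Alternatives covered the window, the list, signal, merging, thresholds and motif windows. On simulated data, 500 of 500 gene windows were counted as by brute force, and 100 of 100 planted motifs were found. Scripts ran under scipy 1.17.1, pandas 2.3.3 and numpy 2.4.6 (python 3.11.15), and pyfaidx 0.9.0.4 read the genome.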

Additional observations from a re-analysis of the deposited data

Results flagged for a closer look

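A value of 1 or more stood in the SOX2 list's seventh column, which no comparison above used, for 11 of the 40 shared intervals on these genes (27.5%, Wilson 95% interval 16.1 to 42.8), against 34.5% of all shared intervals. The highest was 3, in intron 2 of CDH11. The SOX core was present in 6 of those 11 and in 8 of the 29 with a value of 0.

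The down-sampled SOX2 list held 93 intervals on these genes, of which 1 overlapped no interval of the SOX2 list. It lies in PCDH9, at chr13:67155449-67155659.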

How the results depend on the processing

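No paired analysis was possible because only replicate 1 of either group had a list; leaving out a replicate was not possible for the same reason. Of 61 alternative values for 11 results, 44 stayed within the counting interval of the reported value, within 1.5 times a count or, for the median, at the identical value. By this last rule even the longest transcript, with a median of 0.4021 against 0.4018, counted as a shift. With 50% of the intervals of each list kept by total signal, intervals on members numbered 81, the density was 0.581 for the SOX2 list (1.29 over protein-coding windows) and 0.242 for the SOX2-DBD list, the median member density was 0 and the shared percent was 37.5. The down-sampled list gave 0.751 per 100 kb (1.71 over protein-coding windows) and a median of 0; 64.3% of the family's SOX2 intervals overlapped it, as did 64.3% of those over protein-coding windows. Without PCDH9 the SOX2-DBD density was 0.219, the median 0.36 and the shared percent 20.5. The median was 0.42 with no flank, 0.91 with 50 kb either side and 0.40 with the longest transcript. At 3 times the autosomal density, 3 members were dense, and counting by interval centre 4 were, without CDH26. Other settings raised the count of dense members. It was 6 with 50 kb either side, with the longest transcript and with the down-sampled list. It was 7 with 50% of the intervals kept by total signal. With 100-bp windows, the SOX core share was 28.6% and the AP-1 share 2.86%. With windows centred on the region of maximum signal, these shares were 46.4% and 11.4%. Neither setting was run over protein-coding windows. The comparison window 10 kb toward the chromosome start, chosen after seeing the data, held the core in 28.6%. The cause of these shifts was not tested, beyond the fewer intervals or shorter windows that the settings themselves bring.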
